A study of Mus musculus with 12 samples.

Results

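Collagen chain genes were compared across 4 fibroblast populations sorted from the back-skin dermis of mice at postnatal day 2. The members were the genes whose symbol has the form Col, a number, a and a number, each read from a probe set annotated with that symbol alone, and 44 of the 22180 genes measured met this rule. The 44 genes had 47 such probe sets; Col1a2, Col5a1 and Col6a1 each had 2, and for these the probe set with the higher mean over the 12 arrays was used. A further probe set, which joins a collagen gene with other genes, was not used, and Col21a1 is not analysed here.

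Expression was read on Affymetrix Mouse Gene 2.0 ST arrays, which read a transcript through probes spread over its exons, with 3 arrays per population. All samples were labelled wild type, and the study sorted GFP+ cells of PdgfraH2BeGFP reporter mice, in which green fluorescent protein is made in the nuclei of cells that use the promoter of the growth factor receptor Pdgfra. The populations were CD26+ (papillary cells, which the study gated as CD26+Sca1-), Dlk1+Sca1- (reticular cells), Dlk1+Sca1+ and Dlk1-Sca1+ (both pre-adipocytes). All cells passed through dispase and trypsin, collagenase digestion and flow sorting, and cells or matrix lost on the way were not measured.

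Collagens are proteins of the extracellular matrix built of chains that wind around each other in a triple helix. Fibrillar collagens, above all types I, III and V, form the fibrils that carry load in the dermis, and FACIT collagens sit on the surface of those fibrils. Network collagens form sheets such as basement membranes, type VI collagen forms beaded filaments, type VII collagen forms the anchoring fibrils that fasten the epidermal basement membrane to the dermis, and transmembrane collagens are held in the cell membrane. By these roles the 44 genes fell into 11 fibrillar, 9 FACIT, 6 beaded filament, 9 network, 1 anchoring fibril, 2 multiplexin, 4 transmembrane and 2 other genes.

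Values are log2 levels, and since each probe set has its own response, levels were compared between arrays and not between genes. Array medians lay between 5.38 and 5.51. Dlk1-Sca1+ replicate 3 was left out because it met the study's description of a sample it excluded: it read Dlk1 at 8.69 against 8.09 and 8.32 on its 2 fellow arrays and its mean correlation was higher with Dlk1+Sca1+ than with them. The 11 arrays left gave Dlk1-Sca1+ n = 2 and the other groups n = 3, and each collagen difference past the test is also given with all 12. Dlk1 and Dpp4, the gene of CD26, followed the gates in some comparisons. For Dlk1 the log2 difference was -1.37 in CD26+ minus Dlk1+Sca1- and 1.93 in Dlk1+Sca1+ minus Dlk1-Sca1+ (limma, adjusted p = 0.000331 and 6.06e-05). For Dpp4 it was 1.83 in CD26+ minus Dlk1+Sca1- (limma, adjusted p = 0.00528). In CD26+ minus Dlk1-Sca1+ neither gene passed the test, at 0.25 for Dpp4 and 0.36 for Dlk1 (limma, adjusted p = 0.998 and 0.842). Dpp4 in Dlk1-Sca1+ minus Dlk1+Sca1- was 1.58 (limma, adjusted p = 0.0355, with all 12 arrays 0.0619). Ly6a, the gene of Sca1, was not analysed here, so the Sca1 gate was not checked. Of 6 fibroblast markers, Dcn and Lum read 11.64 or more on all 12 arrays, and 2 passed the test as lower in Dlk1+Sca1-: Thy1 against each other population (CD26+ 0.57, Dlk1+Sca1+ 0.83 and Dlk1-Sca1+ 0.99 above it, adjusted p = 0.0243, 0.00261 and 0.0036) and Pdgfra, the reporter gene, against CD26+ and Dlk1-Sca1+ (0.62 and 0.75, adjusted p = 0.0464 and 0.0448). With all 12 arrays Pdgfra passed in neither (limma, adjusted p = 0.154 and 0.248). Pdgfrb was not lower in Dlk1+Sca1-, at 8.49 to 8.85 there and 8.17 to 8.78 on the other arrays. Vim read 11.40 to 11.91 on Dlk1+Sca1- and 11.83 to 12.13 on the others, without passing. In sorted cell pools, fewer cells of a type and less RNA per cell cannot be told apart.

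Of the 44 collagen genes, 8 passed the test (limma, adjusted p at most 0.05) in at least 1 of the 6 comparisons, or 18.2%, against 1050 of all 22180 genes, or 4.73%, and 36 passed in none. The 8 were Col7a1, Col15a1, Col11a1, Col6a6, Col14a1, Col4a5, Col8a1 and Col26a1, with 17 differences past the test among 264 tested. The comparisons share arrays, so these are not separate pieces of evidence. In CD26+ against Dlk1+Sca1-, 2 collagen genes were higher and 3 lower, where 0.654% and 0.442% of all genes were. In CD26+ against Dlk1+Sca1+, 3 were higher and 3 lower (all genes 2.05% and 1.68%). In Dlk1+Sca1+ against Dlk1+Sca1-, 0 were higher and 2 lower (all genes 0.649% and 0.586%). In Dlk1+Sca1+ against Dlk1-Sca1+, 1 was higher and 2 lower (all genes 0.537% and 0.649%), and in CD26+ against Dlk1-Sca1+, 0 were higher and 1 lower (all genes 0.00902% and 0.0766%). In Dlk1-Sca1+ against Dlk1+Sca1-, limma called 0 collagen genes in either direction (all genes 0.343% and 0.248%). There 9 had an unadjusted limma p under 0.05, a threshold at which the share of all genes was not computed. The methods' test (below) called 6 unadjusted, where it called 1851 of all 22180 genes, and 0 adjusted. The median difference over the 44 genes lay between -0.11 and 0.08 in the 6 comparisons, and the medians of all genes lay near 0. Groups that do not overlap are common with so few arrays. By comparison this held for 15.2% to 28.1% of all genes and for 13 to 27 of the 44 collagen genes. With all 12 arrays, 11 of the 17 differences passed, and the 17 are described gene by gene.

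**Figure D1:**
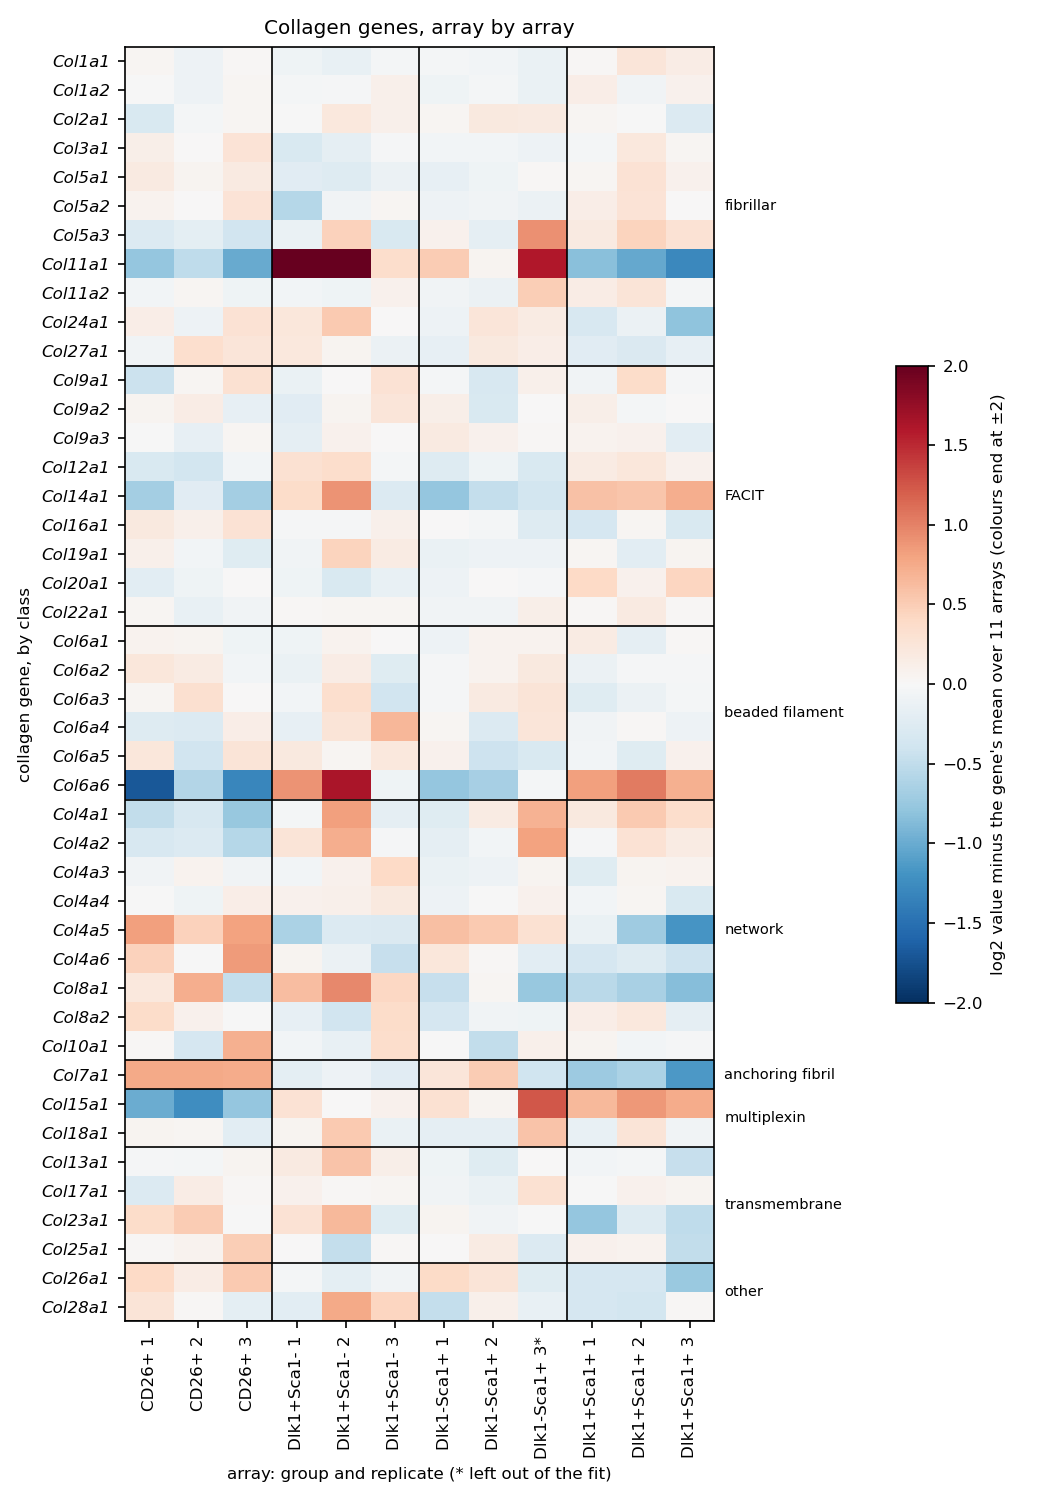
Each row is a collagen gene, ordered by class, and each column an array; colour gives the log2 value minus the gene's mean over the 11 arrays fitted, with the array left out marked by a star. Most rows are pale, and the strong colours lie in Col11a1, Col6a6, Col14a1, Col4a5, Col8a1, Col7a1 and Col15a1.

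**Figure D2:**
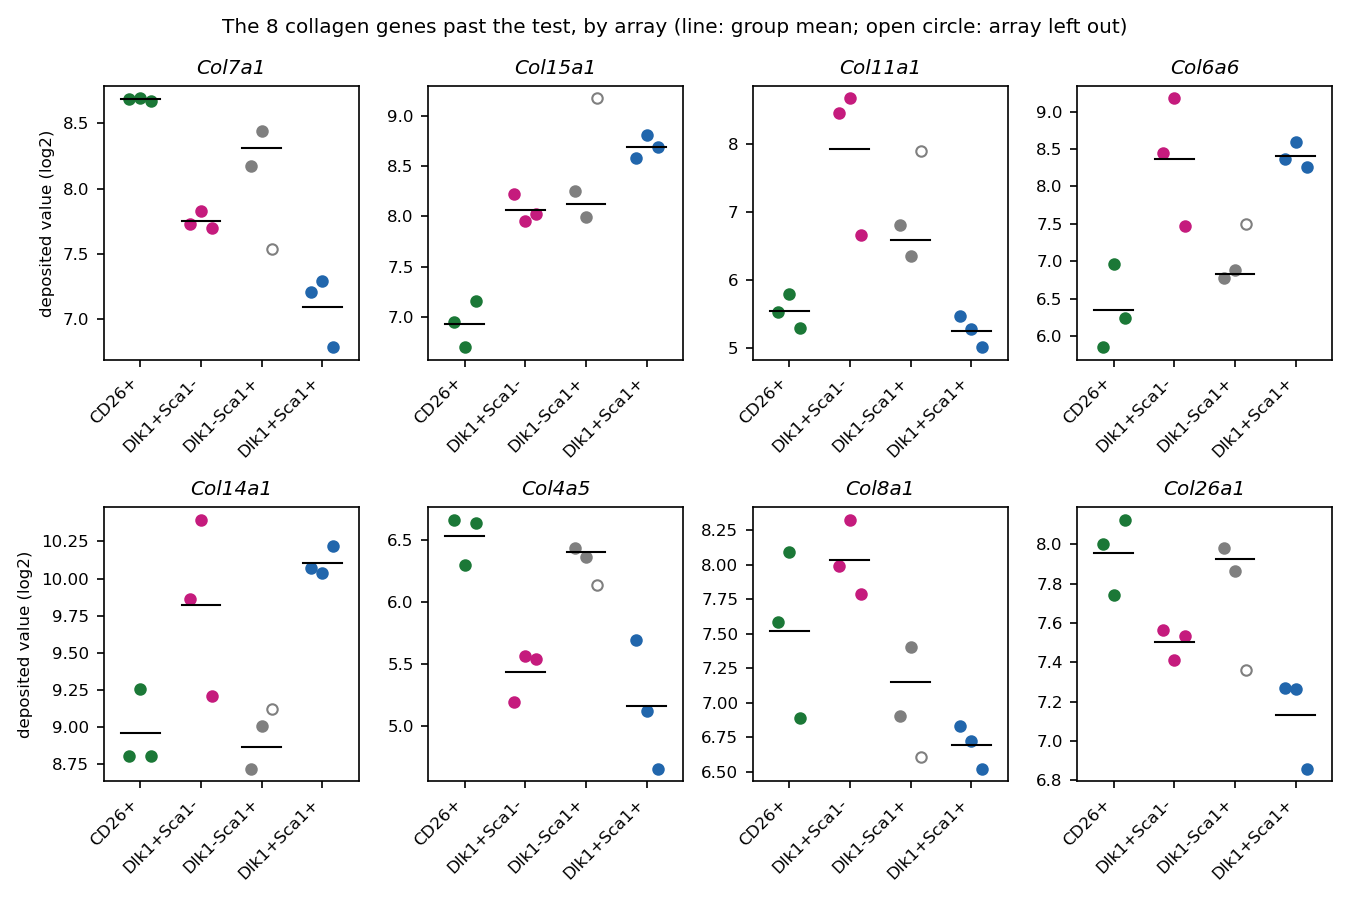
Points are single arrays on the deposited log2 scale for the 8 genes past the test, lines are group means over the arrays fitted, and the open circle is Dlk1-Sca1+ replicate 3. Col7a1 sits between 8.67 and 8.69 on the 3 CD26+ arrays, and Col15a1 is at or below 7.16 on them and at or above 7.95 on all others.

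Promoter sequences are shown for the genes the results turn on: Col7a1 and Col15a1, which moved in opposite directions between CD26+ and the Dlk1+ populations, Col11a1, and the neighbours Col4a5 and Col4a6. Each runs 5′ to 3′ on the gene's strand from 250 bases before the RefSeq start to 50 from it on (GRCm38.p6, the build called mm10), and capitals mark CCAAT (the CCAAT box core), GGGCGG (the GC box core) or TATAAA (the TATA box) on either strand.
Col7a1 (chr9:108953336-108953635, + strand): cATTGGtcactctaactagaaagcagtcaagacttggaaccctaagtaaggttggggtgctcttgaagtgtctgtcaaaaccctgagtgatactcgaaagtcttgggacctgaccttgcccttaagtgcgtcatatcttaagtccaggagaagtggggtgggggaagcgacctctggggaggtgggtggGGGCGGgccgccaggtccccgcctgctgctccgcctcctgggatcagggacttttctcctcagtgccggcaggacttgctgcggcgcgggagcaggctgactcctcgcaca
Col15a1 (chr4:47207762-47208061, + strand): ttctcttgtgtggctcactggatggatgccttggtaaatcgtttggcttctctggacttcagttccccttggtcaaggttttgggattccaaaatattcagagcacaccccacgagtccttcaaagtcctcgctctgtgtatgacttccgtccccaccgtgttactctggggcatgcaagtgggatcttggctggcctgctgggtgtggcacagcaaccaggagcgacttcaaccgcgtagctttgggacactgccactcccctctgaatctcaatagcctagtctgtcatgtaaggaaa
Col11a1 (chr3:114030290-114030589, + strand): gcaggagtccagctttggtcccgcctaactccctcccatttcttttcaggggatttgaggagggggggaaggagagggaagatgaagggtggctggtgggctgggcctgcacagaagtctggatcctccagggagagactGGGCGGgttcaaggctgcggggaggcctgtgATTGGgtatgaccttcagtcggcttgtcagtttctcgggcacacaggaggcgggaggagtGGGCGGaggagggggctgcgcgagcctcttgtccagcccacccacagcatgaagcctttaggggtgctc
Col4a5 (chrX:141475169-141475468, + strand): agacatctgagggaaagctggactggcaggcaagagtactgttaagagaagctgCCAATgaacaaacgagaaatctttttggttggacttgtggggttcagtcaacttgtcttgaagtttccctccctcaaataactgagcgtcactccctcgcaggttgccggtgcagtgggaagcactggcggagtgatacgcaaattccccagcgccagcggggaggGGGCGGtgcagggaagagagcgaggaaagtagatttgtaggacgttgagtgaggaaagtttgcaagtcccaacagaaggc
Col4a6 (chrX:141474027-141474326, - strand): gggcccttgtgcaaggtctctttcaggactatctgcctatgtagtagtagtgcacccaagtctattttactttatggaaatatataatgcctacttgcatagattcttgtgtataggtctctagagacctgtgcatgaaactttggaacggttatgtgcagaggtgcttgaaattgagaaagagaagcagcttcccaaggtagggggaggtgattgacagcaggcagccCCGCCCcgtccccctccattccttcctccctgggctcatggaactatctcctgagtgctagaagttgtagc
CCAAT was found in 37.4% of all 32851 windows of this length and in 13 of 38 windows of collagen genes. GGGCGG, which the factor Sp1 binds, was found in 35.7% of all and in 23 of the 38, and TATAAA in 13.6% and in 5. The 38 windows belonged to 35 of the 44 genes; Col1a1, Col2a1, Col4a3, Col5a2, Col9a3, Col12a1, Col14a1, Col22a1 and Col26a1 had none. Col7a1 held GGGCGG at 61 and ATTGG, which is CCAAT on the other strand, at 249 bases before the start. Col11a1 held GGGCGG at 110 and 19 and ATTGG at 79, and the Col15a1 window held none of the 3 motifs. That window lies wholly inside the annotated gene, which begins at 47207655, so the bases before the annotated gene were not read. A match is a description of letters and not a bound site.

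The main chains of the dermal fibril varied little. Col1a1 and Col1a2, the chains of type I collagen, read 12.19 to 12.57 and 12.65 to 12.88 over the 11 arrays, and their group means spanned 0.22 and 0.11. The widest Col1a1 difference, Dlk1+Sca1+ minus Dlk1+Sca1-, was 0.22 with a 95% interval of 0.05 to 0.39 (limma, adjusted p = 0.27). Col3a1, the chain of type III collagen, had group means that spanned 0.30, and Col5a1 and Col5a2, chains of the type V collagen that helps start fibrils, 0.34 and 0.33. For Col3a1 the difference CD26+ minus Dlk1+Sca1- was 0.30 (interval 0.08 to 0.52, adjusted p = 0.218), with arrays of 12.41, 12.30 and 12.56 against 11.98, 12.11 and 12.28, which did not overlap. The second probe set of Col1a2 gave group means of 12.21 in Dlk1+Sca1+ and 11.89 in Dlk1+Sca1-, a gap wider than the 12.80 and 12.76 of the one used. Col5a3, a minor type V chain, was 6.75 to 7.58 over the 11 arrays and 8.04 on the array left out. Of the remaining fibrillar genes, the cartilage gene Col2a1 read 5.52 to 6.03 and Col27a1 6.28 to 6.90, and Col24a1 was 5.02 to 5.71 in Dlk1+Sca1+ and 5.72 to 6.36 elsewhere (CD26+ minus Dlk1+Sca1+ 0.52, adjusted p = 0.265). Beyond Col11a1, 0 of the 10 other fibrillar genes passed in any comparison.

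Col7a1 (chromosome 9, 108953586 to 108984875), the gene of the anchoring fibril chain, was higher in CD26+ than in both Dlk1+ populations. Its CD26+ arrays read 8.69, 8.69 and 8.67, and those of Dlk1-Sca1+ 8.17 and 8.44, with 7.53 on the array left out. Dlk1+Sca1- arrays read 7.73, 7.83 and 7.69, and Dlk1+Sca1+ arrays 7.21, 7.29 and 6.78. Each of the 4 groups was separate from the next on the arrays fitted, and CD26+ was the highest and Dlk1+Sca1+ the lowest. CD26+ was 1.59 ± 0.16 (log2, SE) above Dlk1+Sca1+, or 3.01-fold (limma, adjusted p = 8.04e-05, with all 12 arrays 0.000906), and 0.93 ± 0.16 above Dlk1+Sca1-, or 1.91-fold (adjusted p = 0.0124, with all 12 arrays 0.0638). Dlk1+Sca1+ minus Dlk1-Sca1+ was -1.21 ± 0.18 (adjusted p = 0.0046, with all 12 arrays 0.0719). None of the 3 pairs of neighbours in this order passed the test: CD26+ minus Dlk1-Sca1+ was 0.37 (interval -0.01 to 0.75, adjusted p = 0.909), Dlk1-Sca1+ minus Dlk1+Sca1- was 0.56 (adjusted p = 0.209), and Dlk1+Sca1+ minus Dlk1+Sca1- was -0.66 (adjusted p = 0.0676; 0.0443 after quantile normalisation and 0.0453 with the dimmest 40% of genes left out).

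The difference between CD26+ and Dlk1+Sca1+ in Col7a1 passed with any 1 of the 11 arrays left out. The CD26+ and Dlk1+Sca1- difference was lost without CD26+ replicate 1, 2 or 3 (adjusted p = 0.0733, 0.0502 and 0.0545), and that between the Sca1+ populations without Dlk1-Sca1+ replicate 2 (adjusted p = 0.0712). Keratinocytes, the cells of the epidermis, also make type VII collagen. Of 9 keratinocyte markers 8 were measured and 0 passed the test in any comparison. The summed level of the 8 was 8.21 to 9.84 (log2) on CD26+, 8.30 to 8.64 on Dlk1+Sca1-, 8.32 to 8.88 on Dlk1-Sca1+ and 8.31 to 8.83 on Dlk1+Sca1+. The basal keratin genes differed among the CD26+ arrays: Krt14 read 5.57, 6.49 and 8.33 on CD26+ replicates 1, 2 and 3, and Krt15 5.12, 6.64 and 8.28. The part of these markers in the Col7a1 difference was not tested. Col17a1, a transmembrane collagen of keratinocyte hemidesmosomes, read 5.78 to 6.20 over the 11 arrays.

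Col15a1 (chromosome 4, 47207655 to 47313167), a multiplexin gene whose product lies at basement membranes of vessels and other tissues, was lower in CD26+ than in each of the other populations. CD26+ arrays read 6.94, 6.70 and 7.16, and Dlk1+Sca1- arrays 8.22, 7.95 and 8.03. Dlk1-Sca1+ arrays read 8.25 and 7.99, with 9.17 on the array left out, and Dlk1+Sca1+ arrays 8.58, 8.80 and 8.68. CD26+ did not overlap any other group, while Dlk1+Sca1- and Dlk1-Sca1+ overlapped each other. CD26+ minus Dlk1+Sca1+ was -1.76 ± 0.16, or 3.38-fold lower (limma, adjusted p = 3.76e-05, with all 12 arrays 0.00148), CD26+ minus Dlk1+Sca1- was -1.13 ± 0.16 (adjusted p = 0.00436, with all 12 arrays 0.0561) and CD26+ minus Dlk1-Sca1+ was -1.19 ± 0.18 (adjusted p = 0.028, with all 12 arrays 0.0239). Dlk1+Sca1+ stood 0.62 above Dlk1+Sca1- and 0.57 above Dlk1-Sca1+ but did not pass (limma, adjusted p = 0.0909 and 0.193). Neither pair overlapped, which held for 15.2% and 26.5% of all genes.

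For Col15a1 the differences from both Dlk1+ populations passed with any 1 array left out. That from Dlk1-Sca1+ was lost in 7 of 11 such fits, without Dlk1-Sca1+ replicate 1 or 2 (adjusted p = 0.242 and 0.0791), CD26+ replicate 1 or 2 (0.0965 and 0.105) or any Dlk1+Sca1+ array (0.0548 to 0.0556), and also when the 2 groups alone were fitted (0.129). Endothelial cells also make Col15a1. All 7 endothelial markers were measured, and in CD26+ against Dlk1+Sca1+ only Tek among them passed the test, at -2.11 (adjusted p = 0.000372). Their summed level was 7.81 to 8.13 on CD26+, 8.20 to 8.40 on Dlk1+Sca1+, 8.05 to 8.52 on Dlk1+Sca1- and 8.01 on both Dlk1-Sca1+ arrays. Over the 12 arrays Cldn5, Emcn and Tie1 read at most 5.60, 3.89 and 4.92, while Pecam1, Kdr, Cdh5 and Tek reached 6.23, 6.25, 7.22 and 7.40. Between CD26+ and Dlk1+Sca1+ every endothelial marker but Tek overlapped, and they did not share a direction. Cdh5 read 5.98 to 6.05 on CD26+ and 5.06 to 6.44 on Dlk1+Sca1+, and Cldn5 5.36 to 5.49 and 4.97 to 5.37. Kdr read 4.83 to 5.15 and 4.57 to 5.54, and Emcn 2.74 to 3.34 and 3.09 to 3.89. The part of endothelial markers in the Col15a1 difference was not tested. All 4 of the adipocyte markers measured of 5 listed (Adipoq, Plin1, Lpl and Fabp4) were lower in CD26+ than in Dlk1+Sca1+, with summed levels of 9.80 to 10.35 and 12.27 to 12.72. With all 12 arrays Adipoq did not pass (limma, adjusted p = 0.342). Summed adipocyte markers were 10.15 to 11.16 on Dlk1+Sca1- and 12.18 to 12.36 on Dlk1-Sca1+, and their part in the Col15a1 difference was not tested. Col18a1, the other multiplexin and a component of basement membranes, read 6.73 to 7.47 over the 11 arrays and passed in 0 comparisons.

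**Figure D3:**
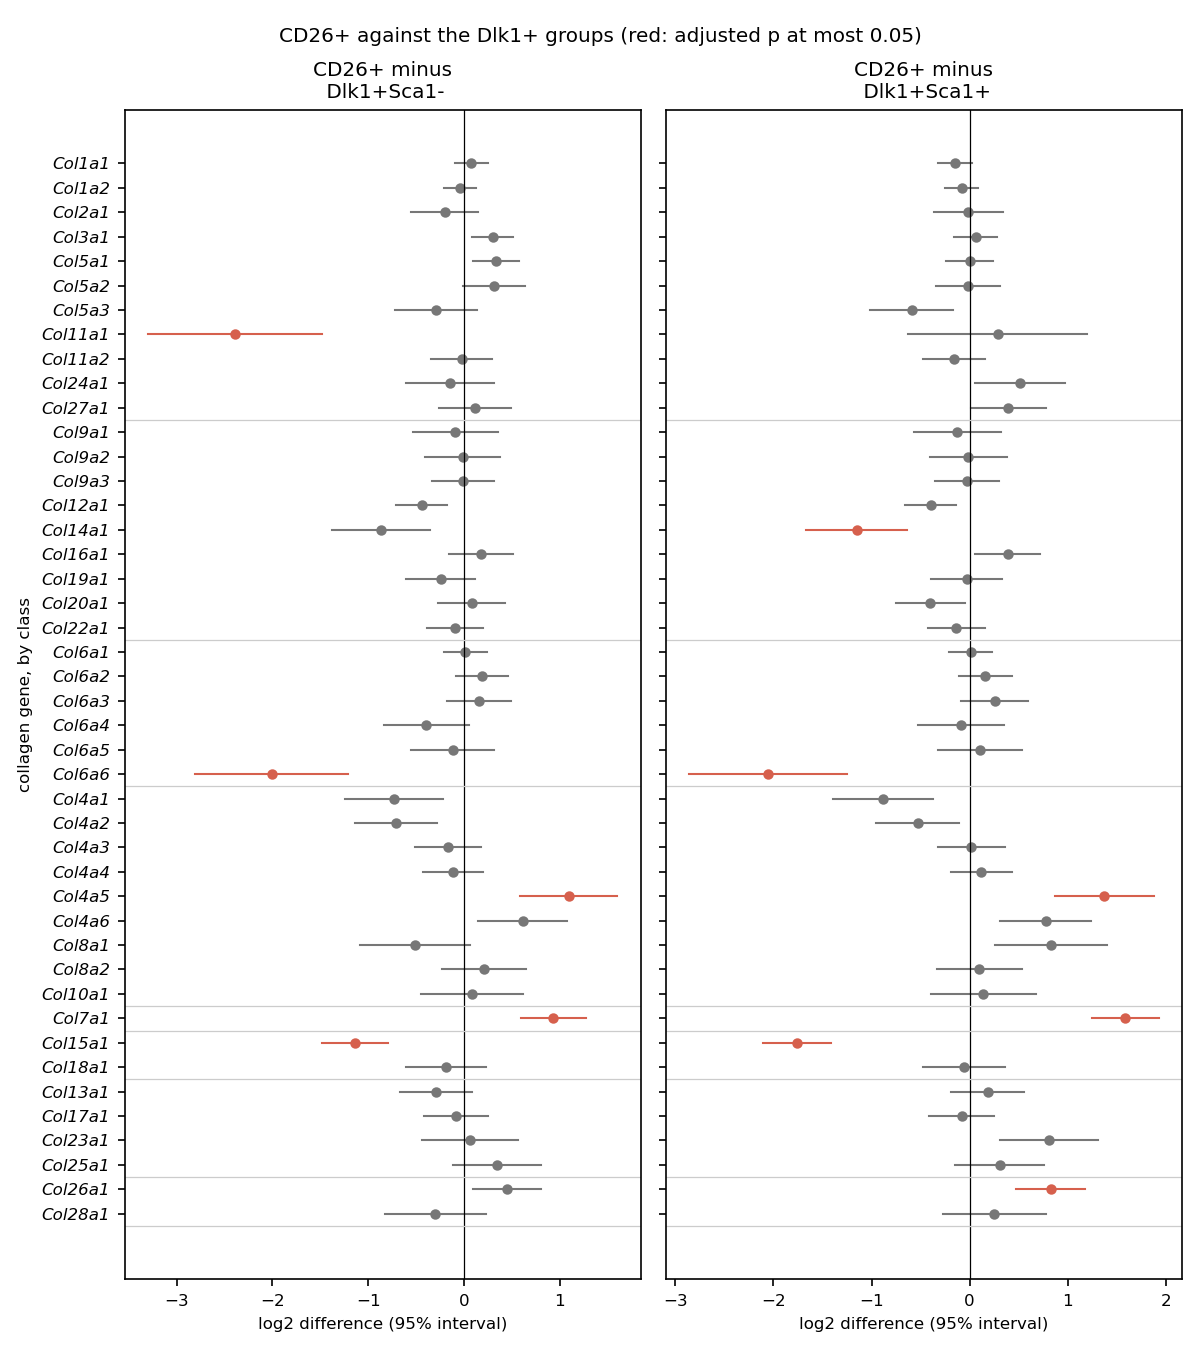
Points are log2 differences of each collagen gene, CD26+ minus Dlk1+Sca1- (left) or minus Dlk1+Sca1+ (right), with 95% intervals, and red marks an adjusted p of at most 0.05. Col7a1 and Col4a5 lie to the right of 0 and Col15a1 and Col6a6 to the left in both panels, while Col11a1 lies far from 0 only in the left panel and Col14a1 and Col26a1 are red only in the right.

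Col11a1 (chromosome 3, 114030479 to 114220756), a minor fibrillar chain known for the fibrils of cartilage, had the widest range of group means of the 44 genes, 2.68. Dlk1+Sca1- arrays read 8.46, 8.67 and 6.66, so that replicate 3 was far below replicates 1 and 2. CD26+ arrays read 5.53, 5.79 and 5.30, and Dlk1+Sca1+ arrays 5.47, 5.28 and 5.01. Dlk1-Sca1+ arrays read 6.81 and 6.36, with 7.90 on the array left out. Dlk1+Sca1- overlapped neither CD26+ nor Dlk1+Sca1+, but its replicate 3 lay within the span of Dlk1-Sca1+. CD26+ minus Dlk1+Sca1- was -2.39 ± 0.42, or 5.24-fold lower (limma, adjusted p = 0.0184, with all 12 arrays 0.0488), and Dlk1+Sca1+ minus Dlk1+Sca1- was -2.68 ± 0.42, or 6.39-fold lower (adjusted p = 0.00944, with all 12 arrays 0.0224). The difference was -1.35 for Dlk1-Sca1+ minus Dlk1+Sca1- (adjusted p = 0.257), -1.04 for CD26+ minus Dlk1-Sca1+ (adjusted p = 0.894) and -1.33 for Dlk1+Sca1+ minus Dlk1-Sca1+ (adjusted p = 0.272).

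Single arrays decided several of the Col11a1 calls. The difference from CD26+ was lost without Dlk1+Sca1- replicate 1 (adjusted p = 0.0768) or CD26+ replicate 1, 2 or 3 (0.0974, 0.051 and 0.0789), and that from Dlk1+Sca1+ without Dlk1+Sca1- replicate 1 (0.0511) or Dlk1+Sca1+ replicate 3 (0.0506). Without Dlk1+Sca1- replicate 3, the Dlk1-Sca1+ minus Dlk1+Sca1- difference was -1.98 and passed (adjusted p = 0.00296), and Dlk1+Sca1+ minus Dlk1-Sca1+ was -1.33 and passed (adjusted p = 0.01). Fitted on the arrays of the 2 populations alone, Col11a1 did not pass in CD26+ or Dlk1+Sca1+ against Dlk1+Sca1- (adjusted p = 0.0876 and 0.0611) and passed in Dlk1+Sca1+ minus Dlk1-Sca1+ (adjusted p = 0.0438).

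Some markers of other cells moved with Col11a1 across the arrays, and others did not. Acan, a cartilage proteoglycan that other cells also make, read 7.88, 7.65 and 6.0 on Dlk1+Sca1- replicates 1 to 3, 4.77 to 5.02 on CD26+, 4.75 to 5.10 on Dlk1+Sca1+, 5.67 and 5.60 on Dlk1-Sca1+ and 6.94 on the array left out. It was the only 1 of 6 chondrocyte markers past the test in Dlk1+Sca1- against CD26+ (adjusted p = 0.0115) and against Dlk1+Sca1+ (0.0132). Matn1 and Cnmd, defining genes of cartilage, read at most 4.50 and 4.45 on any of the 12 arrays, and Col2a1, its main collagen, at most 6.03. Hapln1, a link protein of cartilage matrix, read 5.41, 4.91 and 5.21 on Dlk1+Sca1-, 3.85 to 4.59 on Dlk1+Sca1+, 4.06 to 4.80 on CD26+ and 4.07 and 4.93 on Dlk1-Sca1+, and Sox9, a factor of cartilage and other cells, 6.75 to 7.74 over the 12 arrays. Summed chondrocyte markers were 8.47 to 8.95 on Dlk1+Sca1-, 8.07 to 8.35 on CD26+, 8.0 to 8.08 on Dlk1-Sca1+ and 7.96 to 8.08 on Dlk1+Sca1+.

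Of 4 tendon markers, Thbs4 was higher in Dlk1+Sca1- than in CD26+, and Thbs4 and Tnmd were higher than in Dlk1+Sca1+ (limma, adjusted p = 0.0147, 0.00944 and 0.0474, with all 12 arrays 0.0178, 0.00893 and 0.0754). Tnmd read 8.27, 8.34 and 7.14 on Dlk1+Sca1- and Thbs4 9.40, 10.15 and 8.30, both lowest on replicate 3, while Scx, the defining factor of tendon, read 5.32 to 5.79 on all 12 arrays. On Dlk1-Sca1+ Thbs4 read 5.85 and 5.91, below its 6.63 to 7.48 on CD26+, whereas Col11a1 was higher on Dlk1-Sca1+ than on CD26+. Thbs4 in Dlk1-Sca1+ minus Dlk1+Sca1- was -3.40 (limma, adjusted p = 0.0041, with all 12 arrays 0.000976). Mkx, the remaining tendon marker, was not higher in Dlk1+Sca1-. It read 3.82, 4.46 and 3.99 there, 4.04 to 4.43 on CD26+ and 4.20 to 5.07 on Dlk1+Sca1+, with overlap. Summed tendon markers were 9.04 to 10.57 on Dlk1+Sca1-, 7.92 to 8.52 on CD26+, 8.08 to 8.09 on Dlk1-Sca1+ and 7.77 to 8.32 on Dlk1+Sca1+. Of 7 markers of the dermal condensate and papilla, the mesenchyme of the hair follicle, Sox18 and Prom1 were higher in Dlk1+Sca1- than in CD26+ (limma, adjusted p = 0.0321 and 0.0268, with all 12 arrays 0.0384 and 0.0703), and Sox18, Prom1 and Rspo3 were higher than in Dlk1+Sca1+. Others went the other way without passing. Hhip read 8.04 to 8.14 on Dlk1+Sca1-, 8.61 to 8.98 on CD26+ and 8.56 to 8.86 on Dlk1+Sca1+. Rspo3 read 9.34 to 9.80 on Dlk1+Sca1- and 9.98 to 10.28 on CD26+. Corin and Alx4 had their highest values on Dlk1+Sca1-, also without passing. Sox2, a papilla factor, read 5.42, 4.74 and 3.44 on Dlk1+Sca1- replicates 1 to 3 and 2.90 to 3.91 on all other arrays. Summed papilla markers were 10.37 to 10.91 on Dlk1+Sca1-, 10.73 to 10.92 on CD26+, 10.53 to 10.78 on Dlk1-Sca1+ and 9.52 to 9.79 on Dlk1+Sca1+. The part of these markers in the Col11a1 difference was not tested. Col11a2, which joins Col11a1 in type XI collagen, read 5.78 to 6.16 over the 11 arrays, and its CD26+ minus Dlk1+Sca1- difference was -0.02 with an interval of -0.34 to 0.30.

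**Figure D4:**
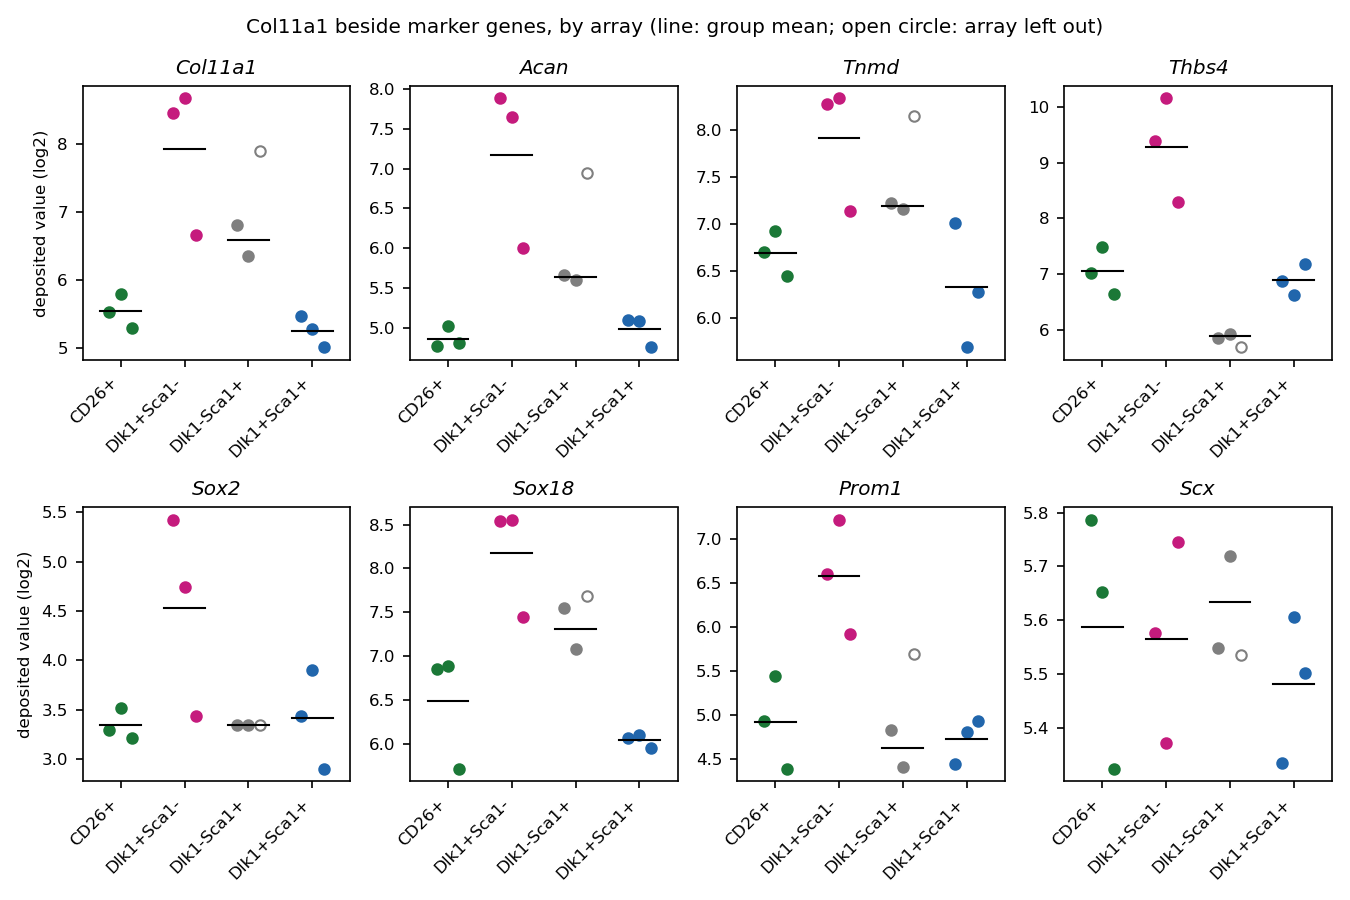
Points are single arrays on the log2 scale for Col11a1 and 7 marker genes of cartilage, tendon and the hair papilla, lines are means over the arrays fitted, and the open circle is Dlk1-Sca1+ replicate 3. Dlk1+Sca1- replicates 1 and 2 stand above replicate 3 in Col11a1, Acan, Tnmd, Thbs4, Sox2, Sox18 and Prom1, while Scx lies between 5.32 and 5.79 throughout.

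Type VI collagen showed flat main chains and a changing alternative chain. Col6a1, Col6a2 and Col6a3, which build the common filament, had group means that spanned 0.03, 0.19 and 0.26. The second probe set of Col6a1 had a wider span, from 10.86 in Dlk1+Sca1- to 11.04 in CD26+. Col6a6 (chromosome 9, 105689417 to 105828246), the gene of an alternative chain similar to that of Col6a3, spanned 2.05. Its CD26+ arrays read 5.85, 6.96 and 6.25 and its Dlk1-Sca1+ arrays 6.77 and 6.88, with 7.50 on the array left out. Dlk1+Sca1- arrays read 8.44, 9.18 and 7.46, and Dlk1+Sca1+ arrays 8.36, 8.59 and 8.26, so that the 2 Dlk1+ populations overlapped each other and lay above the arrays fitted of the other 2. CD26+ minus Dlk1+Sca1+ was -2.05 ± 0.37, or 4.15-fold lower (limma, adjusted p = 0.00799, with all 12 arrays 0.00958), and CD26+ minus Dlk1+Sca1- was -2.01 ± 0.37, or 4.02-fold lower (adjusted p = 0.0228, with all 12 arrays 0.0338). The first passed with any 1 array left out, and the second was lost without Dlk1+Sca1- replicate 1 (adjusted p = 0.0867), CD26+ replicate 1 (0.122) or CD26+ replicate 3 (0.0897), and when the 2 groups alone were fitted (0.108). Dlk1-Sca1+ minus Dlk1+Sca1- was -1.54 (adjusted p = 0.143; without Dlk1+Sca1- replicate 3, -1.98 and 0.0146, and with a replicate block, -1.73 and 0.0353) and Dlk1+Sca1+ minus Dlk1-Sca1+ was 1.58 (adjusted p = 0.111).

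Col6a5 and Col6a4 lie beside Col6a6 on chromosome 9, with gaps of 27823 and 27854 bases between the annotated genes. Col6a5, the gene of another alternative chain, which the study followed in human papillary dermis, read 3.90, 3.29 and 3.94 on CD26+, 3.86, 3.72 and 3.89 on Dlk1+Sca1-, 3.62, 3.43 and 3.75 on Dlk1+Sca1+ and 3.75 and 3.27 on Dlk1-Sca1+. The groups overlapped, and CD26+ minus Dlk1+Sca1- was -0.12 (interval -0.55 to 0.31, adjusted p = 0.865). Col6a4 read 4.72 to 5.66 over the 11 arrays, and neither gene passed in any comparison.

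Among the FACIT collagens Col14a1 (chromosome 15, 55307644 to 55520803), whose product regulates the width of fibrils, was higher in Dlk1+Sca1+ than in CD26+ and Dlk1-Sca1+. Dlk1+Sca1+ arrays read 10.07, 10.04 and 10.22, CD26+ arrays 8.80, 9.26 and 8.80 and Dlk1-Sca1+ arrays 8.72 and 9.01, with 9.12 on the array left out. Dlk1+Sca1- arrays were spread, at 9.86, 10.39 and 9.21, and overlapped CD26+ at the low end and Dlk1+Sca1+ at the high end. CD26+ minus Dlk1+Sca1+ was -1.15 ± 0.24, or 2.22-fold lower (limma, adjusted p = 0.0165, with all 12 arrays 0.0167), and Dlk1+Sca1+ was 1.24 ± 0.27 above Dlk1-Sca1+ (adjusted p = 0.0434, with all 12 arrays 0.058). The first was lost without Dlk1+Sca1+ replicate 1 or 3 (adjusted p = 0.0525 and 0.0728) or CD26+ replicate 1 or 3 (0.0818 and 0.0732), and the second in 8 of 11 such fits, with any array out but Dlk1+Sca1- replicates 2 and 3 and CD26+ replicate 2 (adjusted p = 0.0644 to 0.269), as well as without trend or robust fitting (0.0648). CD26+ minus Dlk1+Sca1- was -0.87 (adjusted p = 0.127), and -1.17 without Dlk1+Sca1- replicate 3, when it passed (adjusted p = 0.00757). Col12a1, a related FACIT gene, read 10.74, 10.69 and 11.01 on CD26+ and 11.21, 11.28 and 11.14 on Dlk1+Sca1+ with no overlap, but the difference of -0.40 did not pass (adjusted p = 0.106; 0.0403 without Dlk1+Sca1- replicate 3). The 7 other FACIT genes, among them the cartilage genes Col9a1, Col9a2 and Col9a3 and Col19a1, passed in 0 comparisons, and their group means spanned at most 0.48, the value of Col20a1.

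Of the network collagens, Col4a5 (chromosome X, 141475370 to 141689236), which encodes a type IV chain of specialised basement membranes, was higher in CD26+ than in both Dlk1+ populations. CD26+ arrays read 6.66, 6.30 and 6.63 and Dlk1-Sca1+ arrays 6.44 and 6.36, with 6.14 on the array left out. Dlk1+Sca1- arrays read 5.20, 5.57 and 5.54, and Dlk1+Sca1+ arrays 5.70, 5.12 and 4.65. The 2 Dlk1+ groups overlapped each other and lay below the other 2, which also overlapped each other. CD26+ was 1.37 ± 0.23 above Dlk1+Sca1+, or 2.59-fold (limma, adjusted p = 0.00467, with all 12 arrays 0.00513), a call kept with any 1 array left out. It was 1.10 ± 0.23 above Dlk1+Sca1- (adjusted p = 0.0445, with all 12 arrays 0.0522), a call lost in 9 of 11 such fits, with any array out but Dlk1+Sca1+ replicates 1 and 3 (adjusted p = 0.0635 to 0.188). It was also lost with a replicate block (0.0553), after quantile normalisation (0.0553) and without trend or robust fitting (0.0505). Dlk1+Sca1+ minus Dlk1-Sca1+ was -1.24 ± 0.26 (adjusted p = 0.0385, with all 12 arrays 0.0504), lost without Dlk1-Sca1+ replicate 1 or 2 (adjusted p = 0.199 and 0.195), Dlk1+Sca1+ replicate 2 or 3 (0.0977 and 0.096) or CD26+ replicate 1 or 3 (0.0571 and 0.0586), with a replicate block (0.0741) and with the 2 groups alone (0.126).

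Col4a6, which encodes the partner of the Col4a5 chain in some basement membranes, begins beside it on the opposite strand, with 1343 bases between the 2 RefSeq starts used for the windows shown. Col4a6 read 6.37, 5.90 and 6.76 on CD26+, 6.13 and 5.93 on Dlk1-Sca1+, 5.95, 5.79 and 5.44 on Dlk1+Sca1- and 5.56, 5.65 and 5.49 on Dlk1+Sca1+. CD26+ minus Dlk1+Sca1+ was 0.78 (interval 0.31 to 1.24, adjusted p = 0.0694; 0.0451 with the dimmest 40% of genes left out and 0.0242 without CD26+ replicate 2), with no overlap, and CD26+ minus Dlk1+Sca1- 0.62 (adjusted p = 0.237), with overlap. For both genes the group means stood in the order CD26+, Dlk1-Sca1+, Dlk1+Sca1- and Dlk1+Sca1+.

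Col4a1 and Col4a2, the chains of the type IV collagen found in nearly all basement membranes, start 21 bases apart on opposite strands of chromosome 8 and had their lowest group mean in CD26+. Col4a1 read 7.69, 7.86 and 7.43 on CD26+, 8.14, 9.01 and 8.01 on Dlk1+Sca1-, 7.95 and 8.35 on Dlk1-Sca1+ and 8.38, 8.70 and 8.54 on Dlk1+Sca1+, with 8.88 on the array left out. CD26+ lay below every other array in both genes, but neither passed in the fit of 11 arrays: CD26+ minus Dlk1+Sca1+ was -0.88 for Col4a1 (limma, adjusted p = 0.0605) and -0.53 for Col4a2 (adjusted p = 0.206), and CD26+ minus Dlk1+Sca1- was -0.73 and -0.71 (adjusted p = 0.203 and 0.131). The Col4a1 difference from Dlk1+Sca1+ passed without Dlk1+Sca1- replicate 2 or 3 (adjusted p = 0.0108 and 0.0379), with a replicate block (0.0134), after quantile normalisation (0.038), with the dimmest 40% of genes left out (0.0382) and with the 2 groups alone (0.0155), but not with all 12 arrays (0.101). Of 6 pericyte markers, only Kcnj8 passed between CD26+ and Dlk1+Sca1+, lower in CD26+ (limma, adjusted p = 0.0324, with all 12 arrays 0.0613). Abcc9 and Notch3 also lay lower in CD26+ without overlap, and Rgs5 overlapped. Mcam and Cspg4 lay higher in CD26+ without overlap, at 7.78 to 8.36 against 7.02 to 7.70 and 6.78 to 7.36 against 6.32 to 6.49. The summed level of the 6 was 9.13 to 9.66 on CD26+ and 9.34 to 9.71 on Dlk1+Sca1+. It was 9.40 to 10.06 on Dlk1+Sca1- and 9.20 to 9.27 on Dlk1-Sca1+. Col4a3 and Col4a4, the chains of kidney basement membrane, read 4.53 to 5.17 and 4.47 to 4.97.

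Col8a1 (chromosome 16, 57624256 to 57754737), a short-chain network collagen of vessel walls and the cornea, differed between the 2 Dlk1+ populations, with Dlk1+Sca1+ the lower. Dlk1+Sca1- arrays read 7.99, 8.32 and 7.79 and Dlk1+Sca1+ arrays 6.83, 6.72 and 6.52. CD26+ arrays were spread, at 7.59, 8.09 and 6.89, and Dlk1-Sca1+ arrays read 6.90 and 7.41, with 6.61 on the array left out. Dlk1+Sca1+ minus Dlk1+Sca1- was -1.34 ± 0.27, or 2.53-fold lower (limma, adjusted p = 0.0285, with all 12 arrays 0.0384). It was lost in 6 of 11 fits with 1 array out, without any Dlk1+Sca1+ array (adjusted p = 0.068 to 0.108), Dlk1+Sca1- replicate 1 or 2 (0.0956 and 0.0961) or CD26+ replicate 1 (0.0521). CD26+ minus Dlk1+Sca1+ was 0.83 (adjusted p = 0.125), and passed at 1.15 without CD26+ replicate 3 (adjusted p = 0.023) and at 0.83 with a replicate block (0.0349). Col8a2, its partner chain, read 4.27 to 5.03 over the 11 arrays, and Col10a1, of growth cartilage, 5.35 to 6.56.

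**Figure D5:**
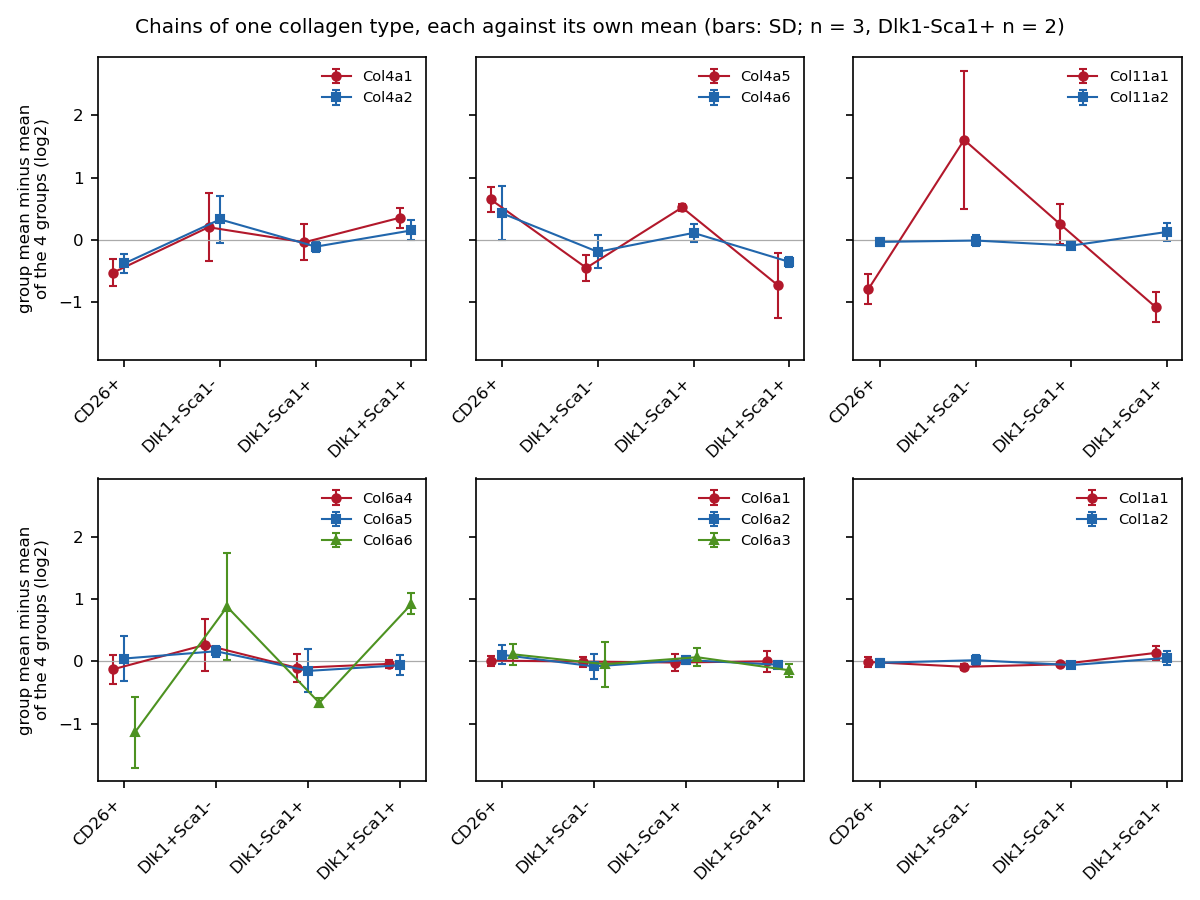
Each panel shows chains of one collagen type as group means minus the mean of the 4 groups (log2), with the SD over arrays as bars (n = 3, and n = 2 for Dlk1-Sca1+). The Col4a1 and Col4a2 lines run close together, as do those of Col4a5 and Col4a6. Col11a1 and Col6a6 span 2.68 and 2.05, while Col11a2, Col6a4 and Col6a5 span 0.22, 0.39 and 0.31.

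Outside these classes, Col26a1 (chromosome 5, 136741759 to 136883376), which encodes a secreted protein with short collagen stretches, was higher in CD26+ than in Dlk1+Sca1+. CD26+ arrays read 8.0, 7.74 and 8.12, Dlk1-Sca1+ arrays 7.98 and 7.87, Dlk1+Sca1- arrays 7.56, 7.41 and 7.53 and Dlk1+Sca1+ arrays 7.27, 7.26 and 6.86. CD26+ and Dlk1-Sca1+ overlapped, and the array left out read 7.36. The CD26+ minus Dlk1+Sca1+ difference was 0.83 ± 0.16, or 1.77-fold (limma, adjusted p = 0.0124, with all 12 arrays 0.0294), and was lost without CD26+ replicate 1 or 3 (adjusted p = 0.0623 and 0.0651) or Dlk1+Sca1+ replicate 3 (0.0566). Dlk1+Sca1+ minus Dlk1-Sca1+ was -0.79 and passed with the dimmest 40% of genes left out (adjusted p = 0.0378). Among the 4 transmembrane collagens, 0 passed in any comparison in the fit of 11 arrays. Col23a1, the widest of them and a gene the study named in human papillary dermis, read 7.44, 7.58 and 7.06 on CD26+, 7.36, 7.71 and 6.82 on Dlk1+Sca1-, 7.12 and 6.99 on Dlk1-Sca1+ and 6.29, 6.81 and 6.55 on Dlk1+Sca1+. CD26+ minus Dlk1+Sca1+ was 0.81 (interval 0.31 to 1.31, adjusted p = 0.0796; 0.0332 without Dlk1+Sca1- replicate 3 and 0.0399 with a replicate block), and CD26+ minus Dlk1+Sca1- was 0.06 (interval -0.44 to 0.56). Col13a1 and Col25a1 read 5.14 to 6.17 and 6.71 to 7.69.

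A list of 50 genes that fold, cut, cross-link, bind or sense collagen was also read, and 45 of them were measured. In CD26+ against Dlk1+Sca1+, 5 of 45 were lower and 0 higher (all genes 1.68% and 2.05%): Pcolce and Pcolce2, which help the enzyme that trims procollagen ends, Lox, which starts collagen cross-links, and the fibril-binding Bgn and Tnxb. Pcolce arrays read 10.37, 10.46 and 10.49 on CD26+, 10.97, 11.18 and 10.84 on Dlk1+Sca1-, 10.78 and 10.88 on Dlk1-Sca1+ and 11.50, 11.53 and 11.50 on Dlk1+Sca1+. Pcolce did not overlap between CD26+ or Dlk1+Sca1+ and any other group, and CD26+ minus Dlk1+Sca1+ was -1.07 ± 0.10 (limma, adjusted p = 5.68e-05, with all 12 arrays 0.00011). The others were -1.27 for Pcolce2, -0.77 for Lox, -0.37 for Bgn and -1.43 for Tnxb (adjusted p = 0.00659, 0.0267, 0.0151 and 0.000252, with all 12 arrays 0.00997, 0.0238, 0.022 and 0.00234). Tnxb, tenascin X, read 8.51, 8.66 and 8.97 on CD26+ and 10.12, 10.16 and 10.13 on Dlk1+Sca1+.

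In Dlk1+Sca1+ against Dlk1-Sca1+, 3 of the 45 were higher and 0 lower (all genes 0.537% and 0.649%): Lox by 1.06, Pcolce by 0.68 and Tnxb by 1.12 (adjusted p = 0.0209, 0.0113 and 0.0105), and with all 12 arrays Tnxb did not pass (adjusted p = 0.112). In Dlk1+Sca1+ against Dlk1+Sca1-, where 0.649% of all genes were higher, 2 of the list were, Pcolce2 by 1.59 and Pcolce by 0.52 (adjusted p = 0.00431 and 0.0269). In CD26+ against Dlk1+Sca1-, where 0.442% of all genes were lower, 2 of the list were, Pcolce at -0.56 and the fibril-binding Kera at -0.81 (adjusted p = 0.0184 and 0.0298, with all 12 arrays 0.0293 and 0.057). In Dlk1-Sca1+ against Dlk1+Sca1-, 1 gene of the list was lower (all genes 0.248%), Kera (keratocan), at -1.13 (adjusted p = 0.015, with all 12 arrays 0.0218), and in CD26+ against Dlk1-Sca1+ limma called 0 (all genes 0.00902% higher and 0.0766% lower), where 4 had an unadjusted p under 0.05 and the methods' test (below) called 7 unadjusted and 0 adjusted. Of the 17 folding genes and the 9 receptors measured, limma called 0 in any comparison, where 4.73% of all genes passed in at least 1, so the count was near the background. At an unadjusted p under 0.05 there were at most 6 of 17 folding genes in a comparison (Dlk1+Sca1+ or Dlk1-Sca1+ minus Dlk1+Sca1-) and at most 5 of 9 receptors (CD26+ minus Dlk1+Sca1-). The share of all genes at an unadjusted limma p under 0.05 was not computed. Neither these counts nor the 4 above were therefore set against a background. Counts of all genes under the methods' test are given in the last section. The median over the 45 was -0.19 in CD26+ minus Dlk1+Sca1+, where the median of all genes was near 0.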

How the data were processed

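The authors deposited 1 table of log2 expression values per probe set for 12 arrays; the summary and normalisation behind them are not given in the sources used here. The build named in the submitters' notes is mm10. Values, from 1.41 to 14.05, were used as deposited on the log2 scale, with no filter. Of 41345 probe sets 23521 carried 1 gene symbol, 1820 several and 16004 none, which gave 22180 genes; 21994 were brought to current symbols and GRCm38.p6 positions through Entrez identifiers. With limma 3.58.1 (R 4.3.3, statmod 1.5.0), lmFit took 1 mean per population over 11 arrays (7 residual degrees of freedom), and eBayes used a mean trend and robust fitting. P-values were two-sided and Benjamini-Hochberg adjusted over all genes within each of 6 comparisons, at 0.05; they measure the spread between arrays labelled biological replicates. The left-out array was identified from the study's description, since its number is not stated. Collagen genes, gene lists, markers and the rule for named genes (every gene past the test, the main dermal chains, partners of a chain past the test, the widest gene of each class, and Col6a5 and Col23a1) were chosen with earlier results of these data known. Summed marker levels are log2 of the sum of unlogged values. Alternatives were all 12 arrays, a replicate block, quantile normalisation, eBayes without trend or robust fitting, leaving out the dimmest 40% of genes, fitting only the 2 groups compared, averaging a gene's probe sets, the methods' two-sample test with equal variances, called the methods' test, and each array left out in turn. The methods' test stands for the Student tests that the study names, beside analysis of variance, for its experiments. The study states no test for the arrays. The scripts were tested on simulated data. Sequences are RefSeq promoter windows, matched by symbol. The number of arrays limits the precision, and the table holds no measure of background.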

Additional observations from a re-analysis of the deposited data

How the results depend on the processing

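Counts of genes past the test are given in the order of comparisons 1 to 6: CD26+ minus Dlk1+Sca1-, Dlk1+Sca1+ minus Dlk1+Sca1-, Dlk1-Sca1+ minus Dlk1+Sca1-, CD26+ minus Dlk1+Sca1+, CD26+ minus Dlk1-Sca1+ and Dlk1+Sca1+ minus Dlk1-Sca1+. The 44 collagen genes gave 5, 2, 0, 6, 1 and 3. All 12 arrays gave 2 in comparison 1 and 0 in comparison 6. A fit of only the 2 groups gave 3, 1 and 0 in comparisons 1, 2 and 5. The methods' test gave 9, 7, 6, 15, 4 and 10 unadjusted and 0 in each after Benjamini-Hochberg adjustment. With 1 array left out the ranges were 1 to 6, 0 to 3, 0 to 3, 4 to 9, 0 to 1 and 0 to 5.

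The 45 assembly and receptor genes gave 2, 2, 1, 5, 0 and 3. All 12 arrays gave 1 in comparison 1 and 2 in comparison 3. Without trend or robust fitting comparisons 1, 2 and 4 gave 1, 1 and 3, without the dimmest 40% of genes comparisons 3 and 4 gave 2 and 8, and with only the 2 groups comparisons 1, 2 and 3 gave 0, 1 and 0. The methods' test gave 11, 14, 7, 15, 7 and 9 unadjusted, and 1 in comparison 4 and 0 elsewhere adjusted. With 1 array left out the ranges were 0 to 2, 1 to 4, 0 to 2, 4 to 6, 0 to 0 and 0 to 3.

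Replicate numbers were not taken to pair the samples, since the labels give them no meaning and not every same-numbered pair deviated together. Deviations of same-numbered arrays correlated at -0.046 to 0.14 (15 pairs, mean 0.045) and others at -0.14 to 0.085 (30 pairs, mean -0.023), and 8 of 11 arrays correlated best with their own number, a hint of pairing from the data and not from the design. A replicate block gave collagen counts of 4, 2, 1, 9, 1 and 3, where the 1 was Col6a6, and 2 assembly genes in comparison 3, where 1 had passed; of all genes it called 944 in comparison 4, where 826 had passed. Under the block Col4a5 no longer passed in comparisons 1 and 6 (adjusted p = 0.0553 and 0.0741).

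Over all 22180 genes the counts were 243, 274, 131, 826, 19 and 263. All 12 arrays gave 137, 29 and 88 in comparisons 1, 5 and 6, and only the 2 groups gave 109, 118 and 26 in comparisons 1, 2 and 3. The methods' test gave 2365, 1897, 1851, 2893, 1310 and 1823 unadjusted, and 5 in comparison 4 and 0 elsewhere adjusted. Signs were checked for each collagen gene's differences past the test and its widest one, some further collagen differences, and assembly genes' differences past the test. Among these, none changed sign beyond the fits with 1 array left out. Differences not checked could change: the Dlk1-Sca1+ mean of Col5a3 was 7.08 on the arrays fitted and 7.40 with all 12, against 7.13 in Dlk1+Sca1-. Col6a1 in CD26+ minus Dlk1-Sca1+ was -0.061 without Dlk1-Sca1+ replicate 1 and 0.12 without replicate 2, and Col9a2 in Dlk1+Sca1+ minus Dlk1-Sca1+ was -0.086 without Dlk1-Sca1+ replicate 2 and 0.34 without replicate 1; neither had passed. The cause of these changes was not tested. Depth in the sense of reads does not exist for arrays; how far background compresses low values such as those of Col6a5 was not tested.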
